A study of Mus musculus with 4 samples.

Results

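The 4 genes described here are Slc12a2, which encodes the sodium-potassium-chloride cotransporter NKCC1, and Aqp3, Aqp4 and Aqp5, which encode water channels. They were chosen by name from the 55511 genes of the tables, and all 4 were detected. Their unique molecular identifier (UMI) counts were followed in the main olfactory epithelium of 4 male C57BL/6 mice (C57BL/6J in the study's methods) aged 8 weeks, which formed 1 group with 1 droplet library per mouse. No treatment, allele, reporter or transgene is named in the labels, and the mice were the replicates (n = 4). Values are UMIs of a gene per 10000 UMIs of the cells of a type in a mouse, given as the mean ± SD over the mice, and the 10 cell types and 10 clusters of mature olfactory sensory neurons (OSNs) are those of the deposited cell table.

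NKCC1 carries chloride into a cell together with sodium and potassium, using the sodium gradient that the sodium pump maintains. OSNs are unusual among neurons in keeping a high chloride concentration: when an odorant receptor opens the cyclic nucleotide-gated channel, calcium enters and opens the chloride channel encoded by Ano2, and chloride leaves the cilia and adds to the depolarising current. Aquaporins let water cross membranes along an osmotic gradient, and the channel encoded by Aqp3 also passes glycerol.

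Of 21809 cell barcodes, the deposited table retained 15859 cells, between 3006 and 4657 per mouse, and the libraries held between 23157467 and 32382702 UMIs in total. Of 21755 distinct barcode sequences, 54 occurred in more than 1 mouse. Several type labels matched their defining markers. Markers of the neuronal precursor and immature neuron types are not given here. The mOSN type held Omp at 72.1 ± 3.78, HBC1 (horizontal basal cells) held Krt5 at 21.3 ± 3.31, and Sus (sustentacular cells) held Cyp2g1 at 71.4 ± 8.73. Among the other preset sustentacular markers, Ermn was highest in Sus at 4.34, but Sec14l3 was not. In cells without a UMI of Krt5, Krt14 or Trp63, Sec14l3 was at 0.197 ± 0.0929 in Sus and 40.0 ± 15.3 in HBC2. Mv2, 1 of 2 microvillar types, held the ionocyte markers Ascl3 at 19.5 ± 2.20, Foxi1 at 7.60 ± 0.760 and Cftr at 7.39 ± 0.711, while Mv1 held the chemosensory marker Trpm5 at 6.01 ± 0.832. The HBC2 and GBC labels matched only in part. HBC2 held Cyp2g1 at 25.7 ± 13.3 and the secretory gene Reg3g at 37.9 ± 21.6, with Reg3g at 5.51 in mouse 2 and 48.4 to 49.0 in the others, and GBC (globose basal cells) held the mesenchymal gene Dcn at 3.52 ± 1.22 and Ascl3 at 1.99 ± 1.41. The types were drawn from the same transcriptomes as the values below, so levels across types and OSN clusters are a description without a test, and neighbours in an order are compared by whether the ranges of the 4 mice overlap.

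Slc12a2 was highest by far in Mv2 cells. The gene lies on the plus strand of chromosome 18 (GRCm38, 57878678 to 57946821). Its levels there were 14.0, 17.1, 18.1 and 16.2 UMIs per 10000 in mice 1 to 4, a mean of 16.4 ± 1.74 over 1768 cells. Mature OSNs came next, with 2.73, 3.50, 3.38 and 3.37, a mean of 3.24 ± 0.347 over 10519 cells. The 2 ranges lay far apart, and within a mouse the Mv2 level exceeded the mOSN level between 4.82-fold and 5.36-fold. Against the other microvillar type, Mv1 (1.61 ± 0.665), the difference was between 7.28-fold and 16.1-fold. RNA of Mv2 cells and mature OSNs, scaled by Ascl3 and Omp, would account for 0.834 of the 1.61 in Mv1. In mouse 3, which had the lowest fold, Mv1 cells held Ascl3 at 2.57, against 0.0485 to 0.181 in the others. In these data the gene best known for loading chloride into sensory neurons was thus at its highest level in a non-neuronal type.

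Below the mature neurons the order was iOSN2 (2.79 ± 0.182), iOSN1 (1.98 ± 0.181), Sus (1.98 ± 0.0684), Mv1, HBC2 (1.55 ± 0.310), GBC (1.54 ± 0.838), INP (0.992 ± 0.256) and HBC1 (0.811 ± 0.310), where INP are immediate neuronal precursors and iOSN1 and iOSN2 are immature OSNs. Apart from Mv2 above mOSN and iOSN2 above iOSN1, the ranges of each pair of neighbours in this order overlapped. mOSN and iOSN2 also overlapped in range, although the mOSN level was the higher in 4 of 4 mice. In mouse 2 the GBC level was 2.78 against 0.905 to 1.25 in the other mice, and Ascl3 there was 4.06 against 1.04 to 1.70. If all Ascl3 in the GBC cells came with Slc12a2 in the ratio of Mv2 cells, it would account for a level of 1.64, which is above the level observed, so no level of the basal cells' own can be read from the GBC value. The same calculation gave 0.00691 for mature OSNs, where Ascl3 was nearly absent.

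**Figure D1:**
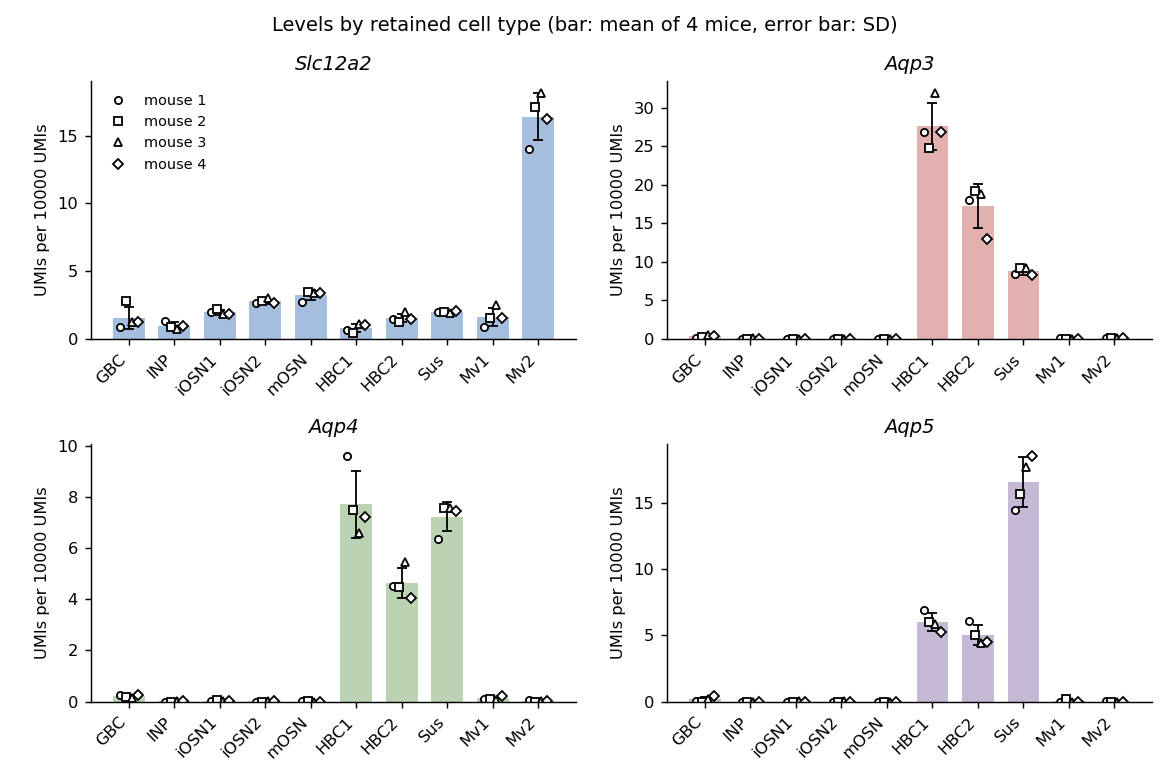
Levels of the 4 genes in the 10 retained cell types, in UMIs per 10000 UMIs on linear axes, with a bar for the mean of the 4 mice, an error bar for the SD and a symbol for each mouse. Slc12a2 stands out in Mv2 at 16.4 and is present at lower levels elsewhere, while the 3 aquaporins are held by HBC1, HBC2 and Sus.

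At the level of single cells, 99.5% ± 0.228 of Mv2 cells held at least 1 Slc12a2 UMI, against 72.9% ± 5.53 of mature OSNs and 29.2% ± 12.2 of HBC1 cells, the type with the lowest level (median 5081, 4861 and 4619 UMIs per cell). After thinning each cell to 2000 UMIs the shares were 93.4% ± 2.04, 45.5% ± 3.54 and 13.7% ± 5.42. The median Mv2 cell held 15.2 UMIs per 10000 and the middle 80% of these cells ranged from 6.57 to 28.1. The high level in Mv2 was therefore spread over almost the whole type and was not carried by a few cells.

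Along the neuronal lineage Slc12a2 held a larger share of its mature level in young cells than the channel genes of the sensory current did. INP cells already held 31.5% ± 12.3 of the mOSN level of the same mouse, iOSN1 cells 61.6% ± 8.33 and iOSN2 cells 86.7% ± 9.07. The level was higher at each step in 4 of 4 mice, from INP to iOSN1, from iOSN1 to iOSN2 and from iOSN2 to mOSN. Ano2 stood at 3.48% ± 1.35, 11.4% ± 2.81 and 37.9% ± 2.48 at the same stages. Cnga2, the principal subunit of the cyclic nucleotide-gated channel, stood at 2.24% ± 1.76, 21.6% ± 1.97 and 64.2% ± 5.09. Omp, a marker of mature OSNs, stood at 7.99% ± 0.540 in iOSN1 and 65.7% ± 2.74 in iOSN2. In iOSN1, the percentages of Slc12a2 in the 4 mice (54.9% to 72.3%) lay above all 4 percentages of Ano2, Cnga2 and Omp. Mature-neuron RNA carried into other cells, as scaled by Omp, would account for 0.0846 in INP and 0.260 in iOSN1, against observed levels of 0.992 and 1.98. With RNA of Mv2 cells added, as scaled by Ascl3, these became 0.152 and 0.288. In iOSN2 the calculation by Omp alone gave 2.13 of the 2.79 observed. Of the other mature-neuron genes, Ano2, at 37.9%, and Cngb1, at 36.6% ± 3.83, stood below Omp at this stage, and Cnga2, at 64.2%, stood near it. How much of the INP, iOSN1 and iOSN2 levels was carried over was not tested.

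Atp1b1, a beta subunit of the sodium pump, which maintains the gradient that drives the cotransporter, was below Slc12a2 in iOSN1 and near it in iOSN2. It was at 14.2% ± 2.32, 28.8% ± 0.905 and 96.2% ± 1.88 of its mOSN level in INP, iOSN1 and iOSN2.

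**Figure D2:**
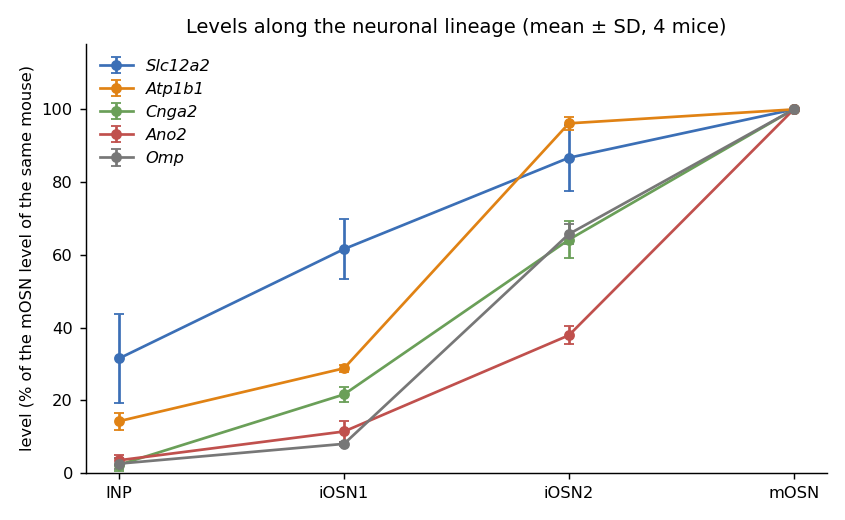
Levels of 5 genes in INP, iOSN1, iOSN2 and mOSN cells as percent of the mOSN level of the same mouse (points: mean of 4 mice, bars: SD). In iOSN1 the Slc12a2 line is at 61.6%, with Atp1b1 at 28.8%, Cnga2 at 21.6%, Ano2 at 11.4% and Omp at 7.99%.

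Within mature OSNs Slc12a2 followed the division of the deposited clusters into dorsal and ventral only within pairs of counterparts. The highest cluster was Calb2+ D., a dorsal cluster, with 4.28, 5.44, 5.68 and 5.87 in mice 1 to 4, a mean of 5.32 ± 0.714. It was followed by Cd36+ D. (4.42 ± 0.689), Dorsal (4.25 ± 0.740) and Cd55+ D. (4.04 ± 1.18). The lowest was Dlg2+ V., a ventral cluster, with 1.76, 2.24, 1.97 and 1.93, a mean of 1.97 ± 0.197, and its range lay below that of each other cluster apart from Dlg2+ D., whose lowest mouse was 2.23. Each dorsal cluster exceeded its ventral counterpart in 4 of 4 mice, on average between 1.40-fold (Dorsal over Ventral) and 1.70-fold (Cd36+ D. over Cd36+ V.). On each side the Dlg2+ cluster had the lowest mean, and with 2.95 ± 0.513 the dorsal cluster Dlg2+ D. lay below the means of 2 ventral clusters, Calb2+ V. and Ventral. The ventral clusters Calb2+ V. (3.39 ± 0.572), Ventral (3.02 ± 0.302), Cd36+ V. (2.60 ± 0.239) and Cd55+ V. (2.53 ± 0.170) lay, with Dlg2+ D., between Cd55+ D. and Dlg2+ V. Of the neighbours in the order of the 10 clusters only Cd55+ V. and Dlg2+ V. did not overlap in range.

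The receptor that a neuron expresses is set by receptor genes and not by Slc12a2, which allowed a test. Neurons with 1 receptor identity were divided into class I, the receptors of the gene cluster on chromosome 7 (1071 neurons of 106 receptors), and class II (8641 neurons of 843 receptors). Slc12a2 was at 3.43, 5.14, 4.51 and 4.31 in class I neurons of mice 1 to 4 and at 2.61, 3.28, 3.23 and 3.26 in class II neurons. Class I was the higher in 4 of 4 mice, and the lowest class I value lay above all class II values. The log2 change was 0.53 ± 0.0396 (SE, adjusted p = 4.59e-33, edgeR's quasi-likelihood test with the mouse as block and Benjamini-Hochberg adjustment). Of the 12541 genes tested, 18.0% were called, 9.12% higher and 8.92% lower in class I. Slc12a2 was 1 of the 2 members that passed the filter on low counts and the 1 called.

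Class I receptors are expressed on the dorsal side, so the side was next compared within class II. The side of each class II receptor was read in each mouse from the other 3 mice, as dorsal where its neurons held more UMIs of Nqo1 than of Nfix and as ventral where they held fewer. Slc12a2 was at 3.20, 4.55, 4.56 and 4.50 in the 2163 dorsal-side neurons and at 2.40, 2.89, 2.73 and 2.90 in the 6235 ventral-side neurons. Each dorsal value lay above each ventral value, and the ratio within a mouse was 1.34 to 1.67. The log2 change was 0.62 ± 0.0379 (SE, adjusted p = 2.16e-26, edgeR), beside 22.3% of 12178 genes called, 10.6% higher and 11.8% lower on the dorsal side. This comparison and that of the classes share the class II neurons and are not independent of each other. When class I neurons were set against the dorsal-side class II neurons alone, the log2 change of Slc12a2 was 0.10 ± 0.0439 (adjusted p = 0.194, edgeR), class I was the higher in 2 of 4 mice, and the call made against all class II neurons was lost.

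The ionocyte markers Ascl3, Foxi1 and Cftr were near 0 in all these groups, with means of 0.00191 to 0.0112, and the median UMI count per neuron was 4930 in class I, 4793 in class II, 4407 on the dorsal side and 4920 on the ventral side. With each neuron thinned to 2000 UMIs the log2 changes of Slc12a2 were 0.56 for the classes and 0.64 for the sides.

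**Figure D3:**
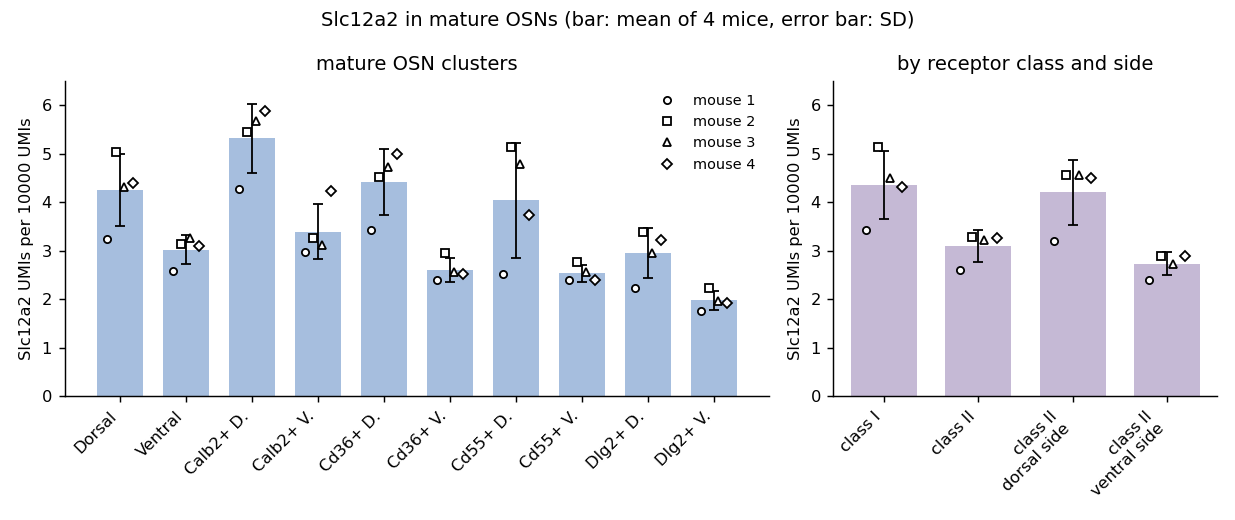
Slc12a2 in UMIs per 10000 UMIs in the 10 deposited clusters of mature OSNs (left, dorsal and ventral counterparts side by side) and in neurons grouped by receptor class and side (right), with bars for the mean of 4 mice, error bars for the SD and a symbol for each mouse. The dorsal member of each pair is the higher, and class I (4.35) stands near dorsal-side class II (4.20), above ventral-side class II (2.73).

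The channel genes of the sensory chloride current were lower in class I neurons, where 4 of the 5 tested genes of that list were called lower and 1 higher, beside 8.92% and 9.12% of all genes. The maturity marker Omp was lower in class I in 4 of 4 mice too (62.6 ± 3.10 against 73.5 ± 3.50), and on the dorsal side of class II (68.1 ± 4.11 against 75.2 ± 3.12), and its part in these differences was not tested. The 1 called higher was Slc24a4, which encodes a calcium exchanger (log2 change 0.38 ± 0.0859, adjusted p = 2.14e-04, edgeR), and against dorsal-side class II alone its call was lost (adjusted p = 0.101). It and Cngb1, a channel subunit (-0.28 ± 0.0482, adjusted p = 3.74e-07, edgeR, and 0.0588 against dorsal-side class II alone), were named after their values were seen. Cnga2 was at 5.95 ± 0.172 in class I and 7.43 ± 0.249 in class II (log2 change -0.26 ± 0.0339, adjusted p = 5.67e-12, edgeR). Ano2 was at 2.56 ± 0.369 and 3.03 ± 0.355, with a log2 change of -0.18 ± 0.0452 (adjusted p = 6.59e-04, edgeR), a call that was lost with DESeq2 (adjusted p = 0.0588), without the mouse as block (adjusted p = 0.281) and against dorsal-side class II alone (adjusted p = 0.295). Without the block the call of Cnga4 was lost as well (adjusted p = 0.0994). Cnga2 in class I was at 0.79 to 0.90 of its level in dorsal-side class II neurons, lower in 4 of 4 mice. Between the class II sides, 3 of the 5 were called lower and 1 higher on the dorsal side, beside 11.8% and 10.6% of all genes, at -0.15 for Cngb1 (adjusted p = 0.00307, edgeR), -0.09 for Cnga2, -0.11 for Ano2 and 0.11 for Cnga4 on the log2 scale. Slc24a4 was at 0.17 (adjusted p = 0.0909, edgeR). With DESeq2 the 4 calls were lost, with adjusted p of 0.0928, 0.231, 0.358 and 0.125, and without the mouse as block they were lost as well (0.213, 0.512, 0.591 and 0.426). The call of Cngb1 was kept in edgeR with each mouse left out, and single mice decided the others: the call of Ano2 was lost without mouse 1, 2 or 4 (adjusted p = 0.0633, 0.107 and 0.541), that of Cnga2 without mouse 2 or 4 (0.219 and 0.148) and that of Cnga4 without mouse 4 (0.183). Atp1b1 had the direction of Slc12a2, with log2 changes of 0.28 ± 0.0258 in class I (adjusted p = 8.55e-23, edgeR) and 0.31 ± 0.0265 on the dorsal side (adjusted p = 1.04e-17, edgeR), while against dorsal-side class II alone class I differed by 0.06 (adjusted p = 0.239, edgeR). Of the 6 sodium pump genes tested, 2 were called higher and 0 lower in class I, beside 9.12% and 8.92% of all genes. On the dorsal side 1, Atp1b1, was called higher and 2 lower, beside 10.6% and 11.8%.

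Slc12a2 differed among populations of neurons with the same receptor. These populations span both classes and both sides, so this test contains the differences above and is not independent of them. No test was run among populations of 1 side. Populations were kept where every mouse contributed 5 neurons or more, which gave 42 populations and 1782 neurons. In these, the mean level ranged from 1.55 to 6.69 with a median of 2.78. The test across all populations gave an adjusted p of 6.13e-19 (edgeR's quasi-likelihood F test, mouse as block), beside 39.3% of 2207 genes called, and between 6.23e-32 and 1.34e-08 under the alternative settings. Of the members, Slc12a2 alone passed the filter on low counts here. The populations of Olfr591 (4.83, 8.92, 7.33 and 5.68), Olfr594 (2.35, 8.40, 6.44 and 5.28) and Olfr586 (3.39, 6.60, 5.64 and 5.49), all of class I, had the highest means, and mouse 1 was the lowest in each. Those of Olfr455 (1.29, 1.74, 0.650 and 2.52) and Olfr1564 (0.516, 1.22, 2.06 and 2.58), whose neurons were most often assigned to Dlg2+ V., had the lowest.

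All 5 class I populations were among the 10 highest means, together with 3 dorsal-side and 2 ventral-side populations of class II, and all 10 lowest were of the ventral side. The sides overlapped, however. Ventral-side populations ranged from 1.55 to 5.06, the highest being Olfr1384, and dorsal-side class II populations from 2.55, in Olfr1406, to 4.88, in Olfr1176. With 25 to 83 neurons per population, most neighbours in this order overlapped in range.

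**Figure D4:**
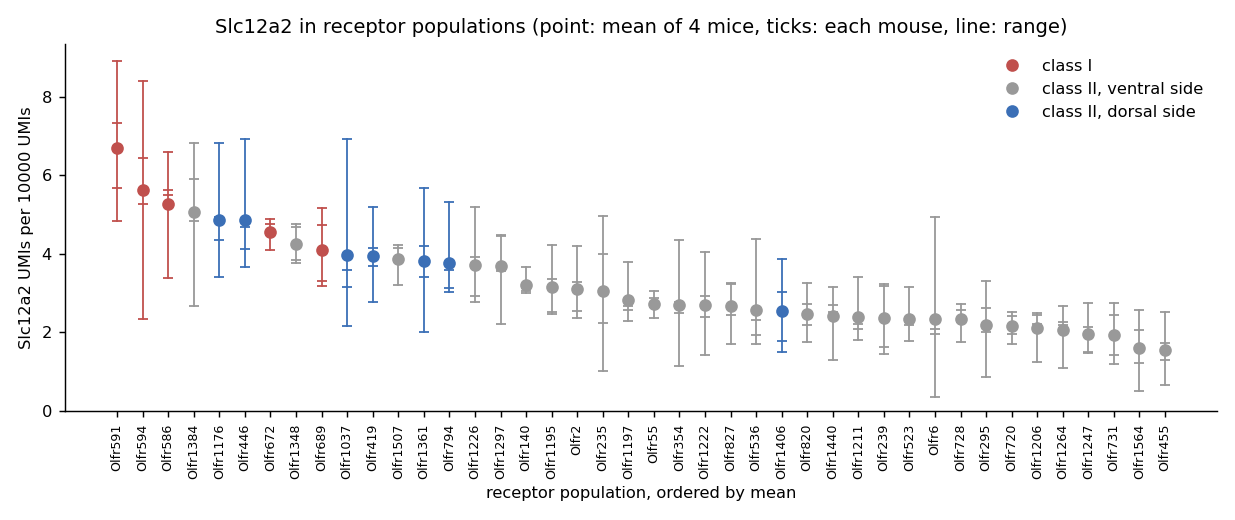
Slc12a2 in UMIs per 10000 UMIs in 42 receptor populations ordered by their mean over 4 mice (point: mean, ticks: each mouse, line: range), coloured by receptor class and side. Class I populations lie at 4.10 to 6.69 and 28 of the 30 ventral-side class II populations below 4.

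The other cation-chloride cotransporters were low. Of 8 such genes, 0 reached 1 UMI per 10000 in any type, 3 lay below 0.1 in all types, and Slc12a2 was thus the 1 cotransporter of this family above that level. Of the genes shown from all the pathway lists, which also cover ion channels, pumps, other aquaporins and Aqp4 anchoring, 22 reached that level, and 9 of the 22 were highest in Mv2. The share of all genes highest in Mv2 was not computed, so this count has no background. Cftr, among the 9, is also an ionocyte marker. Among the kinases that regulate the cotransporters, listed together with the scaffold gene Cab39, 3 of 7 genes reached 1 UMI per 10000. All 3 had their highest mean in Mv2. These were Stk39 (2.14 ± 0.332), a kinase that phosphorylates NKCC1, its scaffold partner Cab39 (2.38 ± 0.157) and Wnk1 (2.07 ± 0.191), acting upstream. The epithelial sodium channel genes Scnn1a (5.75 ± 0.428), Scnn1b (5.06 ± 0.879) and Scnn1g (2.82 ± 0.220) were also highest there, as were Cftr and the pump gene Atp1b1 (23.3 ± 0.740). In mature OSNs, 4 of 6 genes of the sensory chloride current reached 1 and were highest, with Cnga2 at 7.24 ± 0.234, Cnga4 at 4.99 ± 0.0866 and Ano2 at 2.96 ± 0.349. Of the 3 genes from the kinase list, Wnk1 was at 1.52 ± 0.141 there and Stk39 and Cab39 stayed below 1. The anion exchanger Slc4a2 was highest in Sus (1.76 ± 0.436).

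Over the means of the 10 types, the genes whose pattern was most like that of Slc12a2 were Higd1a (Pearson r of log2 values 0.98), Foxk1 (0.97), Lrrc18 (0.96), Scube3 (0.95) and Gm17634 (0.95). All 5 were highest in Mv2, and these correlations are a description over 10 points that share libraries. Higd1a was at 3.17 in Mv2, while Foxk1, Lrrc18, Scube3 and Gm17634 were low there, at 0.0920 to 0.272.

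**Figure D5:**
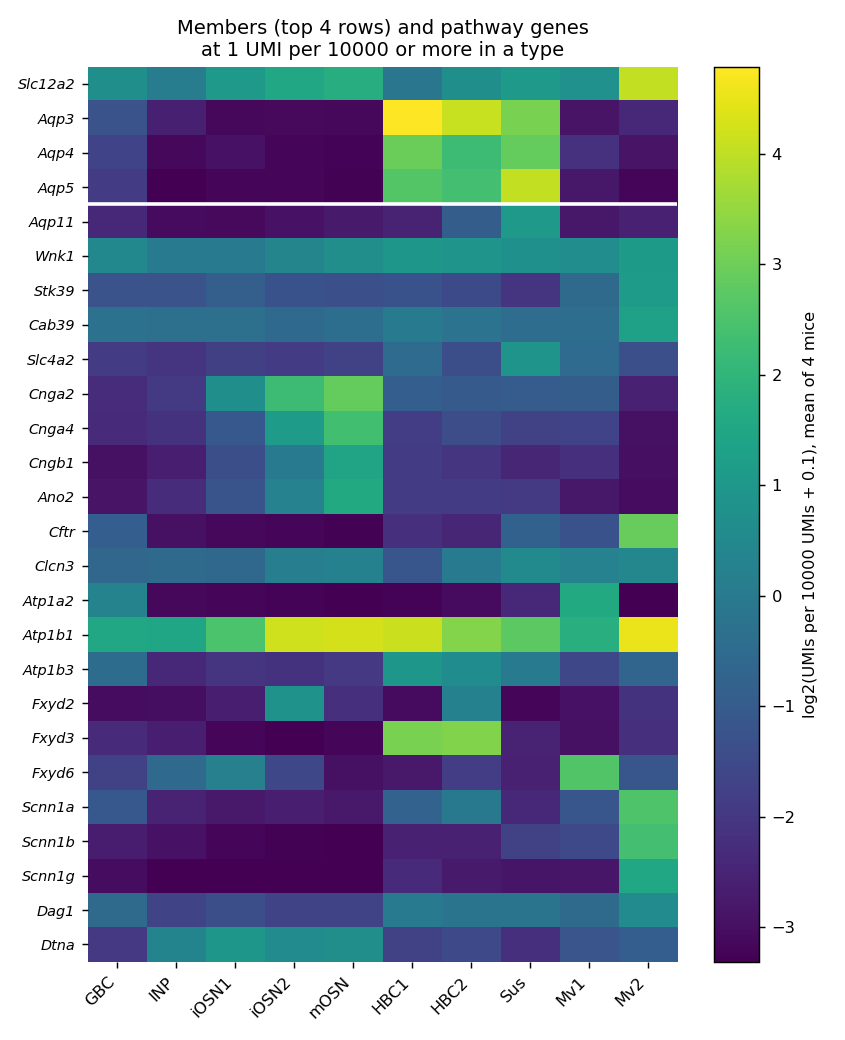
Mean over 4 mice of log2(UMIs per 10000 UMIs + 0.1) for the 4 members (top) and 22 pathway genes that reached 1 UMI per 10000 in at least 1 type, in the 10 retained types. Slc12a2, Stk39, Cab39, Cftr and the Scnn1 genes are brightest in Mv2, the aquaporins in HBC1, HBC2 and Sus.

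The 3 aquaporins were expressed in HBC1, HBC2 and Sus cells and were nearly absent from mature OSNs. Aqp3 lies on the minus strand of chromosome 4 (GRCm38, 41092722 to 41098183) and Aqp5 on the plus strand of chromosome 15 (99590782 to 99594829), between Aqp2 (99579055 to 99584547) and Aqp6 (99601400 to 99605477), and no annotated gene overlaps either. The RefSeq promoter windows of both, which run from 250 bases before to 50 after the start site (GRCm38.p6), are shown because their products share the same 3 cell types in different proportions. The TATA box was searched as TATAAA on both strands. The GC box was searched as GGGCGG and the E-box as the palindrome CACGTG. The letters CCAAT were searched as well, and all matches are in capitals. Matches of different motifs did not overlap in either window.
Aqp3, chr4:41098134-41098433, minus strand: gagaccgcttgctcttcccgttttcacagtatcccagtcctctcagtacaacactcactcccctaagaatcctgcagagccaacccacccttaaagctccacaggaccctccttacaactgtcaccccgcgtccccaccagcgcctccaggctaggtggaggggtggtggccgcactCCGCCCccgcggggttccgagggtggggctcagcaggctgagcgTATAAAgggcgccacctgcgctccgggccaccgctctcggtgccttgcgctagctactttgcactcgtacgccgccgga
Aqp5, chr15:99590778-99591077, plus strand: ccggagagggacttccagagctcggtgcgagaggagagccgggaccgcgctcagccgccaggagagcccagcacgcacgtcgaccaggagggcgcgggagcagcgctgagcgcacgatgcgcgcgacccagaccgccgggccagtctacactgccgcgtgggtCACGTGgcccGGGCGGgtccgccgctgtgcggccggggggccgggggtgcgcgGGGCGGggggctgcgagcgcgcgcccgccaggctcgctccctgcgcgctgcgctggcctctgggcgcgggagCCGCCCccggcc
The Aqp3 window held a TATA box from 29 to 24 bases before the start site and 1 GC box on the other strand. The Aqp5 window held 3 GC boxes and 1 E-box and no TATAAA, and neither held CCAAT. Of 32851 windows of the same length, 13.6% held the TATA box, 35.7% the GC box, 37.4% the letters CCAAT and 7.15% the E-box. The GC content was 64.0% for Aqp3 and 79.7% for Aqp5, against a median of 52.7%, and 98.8% of the windows had less than Aqp5. The RefSeq start site of Aqp5 lies 246 bases within the gene as GENCODE M21 draws it. The start sites of the single GENCODE transcripts were not compared with it. A match is a stretch of letters and no evidence of binding.

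Aqp3 was highest in HBC1, with 26.8, 24.8, 31.9 and 26.9 in mice 1 to 4, a mean of 27.6 ± 3.01 over 210 cells. HBC2 held 18.0, 19.1, 18.8 and 12.9, a mean of 17.2 ± 2.90 over 544 cells, and Sus 8.43, 9.21, 9.22 and 8.25, a mean of 8.77 ± 0.509 over 336 cells. These 3 ranges did not overlap, and HBC1 exceeded Sus between 2.69-fold and 3.46-fold within a mouse. The fourth type, GBC, was at 0.327 ± 0.195.

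Aqp5, whose product is found at the apical membrane of many secretory epithelia, was highest in Sus, where Aqp3 was lowest of the 3 types. Sus held 14.4, 15.7, 17.7 and 18.5, a mean of 16.6 ± 1.88. HBC1 held 6.94, 5.98, 5.90 and 5.23, a mean of 6.01 ± 0.704, and HBC2 6.08, 5.01, 4.46 and 4.50, a mean of 5.01 ± 0.754. Sus lay above both without overlap, between 2.08-fold and 3.55-fold above HBC1, while HBC1 and HBC2 overlapped in range although HBC1 was the higher in 4 of 4 mice. Aqp4, the main water channel of astrocyte endfeet, lies on the minus strand of its chromosome and overlaps AC133525.2 on the other strand, which the strand-specific counting keeps apart. It was at 9.60, 7.49, 6.58 and 7.20 in HBC1 (7.72 ± 1.31) and at 6.36, 7.56, 7.57 and 7.44 in Sus (7.23 ± 0.581). These overlapped, with HBC1 the higher in 1 of 4 mice. HBC2 was lower than both at 4.52, 4.49, 5.45 and 4.05 (4.63 ± 0.590), with no overlap. From HBC1 to Sus, therefore, Aqp3 was lower, Aqp5 higher and Aqp4 about level.

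Single cells mostly held more than 1 aquaporin. After thinning each cell to 2000 UMIs, UMIs of all 3 genes were found in 90 of 201 HBC1 cells (44.8%), 166 of 531 HBC2 cells (31.3%) and 167 of 332 Sus cells (50.3%), and at least 1 of the 3 in 100%, 97.2% and 97.6% of the cells. Aqp3 was detected in 97.7% ± 3.37, 88.6% ± 6.55 and 77.1% ± 4.87 of the thinned cells of these types, Aqp5 in 62.4% ± 4.54, 54.7% ± 6.43 and 90.2% ± 5.84, and Aqp4 in 71.4% ± 4.78, 54.0% ± 4.48 and 68.8% ± 1.10. The corresponding shares of mature OSNs were 0.245% ± 0.113, 0.0909% ± 0.0209 and 0.134% ± 0.0483.

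HBC2 was not uniform in Aqp3. A split chosen after its values were seen divided it into 410 cells with a UMI of Krt5, Krt14 or Trp63, the basal cell markers, and 134 cells without. The first held Cyp2g1 at 0.355 ± 0.670 and the second at 68.2 ± 30.4, close to the Sus level. Aqp3 was at 20.5 ± 3.33 in the cells with basal markers and at 11.4 ± 2.37 in those without, and these ranges did not overlap (15.7 to 23.3 against 9.17 to 14.5). Aqp4 (4.48 ± 0.896 and 4.80 ± 0.422) and Aqp5 (4.74 ± 0.740 and 5.50 ± 0.897) overlapped in range. The cells without basal markers were unlike Sus in Aqp5, which was at 4.87 to 6.82 there and at 14.4 to 18.5 in Sus. They also differed in Sec14l3, itself a preset sustentacular marker (40.0 ± 15.3 against 0.197 ± 0.0929 in Sus cells without basal markers). Reg3g was at 1.12 in mouse 2 and 103 to 117 in the others, against 0.0241 ± 0.0174 in those Sus cells.

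Summed over all mature OSNs, Aqp3, Aqp4 and Aqp5 were at low levels. Aqp3 was at 0.0141 ± 0.00744, Aqp4 at 0.00583 ± 0.00159 and Aqp5 at 0.00512 ± 0.000952 (78, 32 and 28 UMIs in 10519 cells). Scaled by Krt5 and Cyp2g1, RNA of HBC1 and Sus would give 0.0149, 0.00687 and 0.0121. This takes all Krt5 and Cyp2g1 in mature OSNs as carried over, which was not tested. Among the OSN clusters, Aqp4 in Calb2+ V. was higher, at 0.0366 ± 0.0413, with 10 of the 32 UMIs in 542 cells, 6 of them in mouse 2 and 0 in mouse 4. In iOSN1 cells Aqp4 was above that calculation, at 0.0319 ± 0.0115 (20 UMIs) against 0.00532. Of the 3, Aqp3 alone passed the filter on low counts in the class and side comparisons and was called in neither (log2 change 0.77 ± 0.512, adjusted p = 0.339, and -0.47 ± 0.485, adjusted p = 0.561, edgeR). Aqp4 and Aqp5 were not tested there. Mv2 cells, which had the most Slc12a2, were low in all 3, at 0.0929 ± 0.0337, 0.0344 ± 0.0215 and 0.0124 ± 0.00913. RNA of HBC1 and Sus, scaled by Krt5 and Cyp2g1, would give 0.0555, 0.0207 and 0.0268 there.

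Of the 9 other aquaporin genes, 1 reached 1 UMI per 10000, Aqp11, in Sus at 2.02 ± 0.139 (0.0520 ± 0.00629 in mature OSNs, 284 UMIs), and 7 lay below 0.1 in all types, among them Aqp2 and Aqp6, the neighbours of Aqp5. Of the 6 genes of Aqp4 anchoring and potassium buffering, 2 reached 1: Dag1, which encodes dystroglycan, was highest in Mv2 (1.40 ± 0.0783) and Dtna, a dystrobrevin, in iOSN1 (1.85 ± 0.0794), so neither was highest where Aqp4 was. Over the 10 types, the genes most like Aqp3 included Apoc1, Hlf, Il17re and Nr2e1 (r between 0.99 and 1.00). Aqp4 was most like Ermn, Aqp5, Ces1d, Hsd17b6 and Tsku (0.99 for each), and Aqp5 most like Ermn (1.00), Lcn2 (1.00), Kcnj13 (0.99), Tsku (0.99) and Aqp4 (0.99). The aquaporins correlated with each other at 0.96 to 0.99 and with Slc12a2 at -0.41 to -0.37.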

How the data were processed

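Olfactory epithelium cells of 4 mice were profiled with the 10x Genomics 3′ chemistry, and the authors aligned reads to GRCm38 with Cell Ranger 6.0.1 (per the submitters' processing notes and the study's methods), using an annotation with redrawn receptor 3′ ends. Raw UMI counts, not normalized, are what the deposited matrices contain. The deposited cell table gives the percent of mitochondrial UMIs, from which the authors removed cells, together with types, OSN clusters and receptor identities made in Seurat, which were used as they stand. The deposited merged table differed from the matrices in 0 of 55511 genes. The members and gene lists were chosen with earlier results of these data known.

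Levels are summed UMIs of a gene per 10000 summed UMIs of a type in a mouse. No doublet caller was run. Instead, levels were recomputed without the 4% of cells with most UMIs in each type and mouse and, outside the neuronal lineage, without cells holding a receptor UMI. Per the study's methods, neurons with more than 1 receptor above an expression cutoff have no identity. Other neurons with several detected receptors carry the identity of the highest. For shares, cells were thinned to 2000 UMIs, and 495 of 15859 cells below that depth were omitted. Tests used UMI sums per mouse and neuron group in edgeR 4.0.16 (R 4.3.3) with TMM, filterByExpr and quasi-likelihood tests, with p-values adjusted by Benjamini-Hochberg over all genes tested and called at 0.05. The 1430 receptor genes were left out, as were Nqo1 and Nfix from the test of the sides. Both sums of a mouse come from 1 animal and library, so the mouse was a block. Class II neurons of receptors with tied or unseen sides (243) were left out. The script was tested on simulated data. Alternatives were no block, DESeq2 1.42.0, no filter on low counts, thinning, each mouse left out, at least 3 neurons per mouse for populations, and other denominators and cell filters for levels. Named genes were the members, genes of the pathway lists at 1 UMI per 10000 or more in a type (up to 3 per list), and the 5 genes most correlated with each member over the 10 types on log2(UMIs per 10000 + 0.1), among genes with at least 200 UMIs. Positions are from GENCODE M21 and promoter windows from RefSeq (GRCm38.p6). Slc12a2 and Aqp4 sequences are not shown. A pathway gene and a gene correlated with a member that these rules also name are not reported here.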

Additional observations from a re-analysis of the deposited data

Results flagged for a closer look

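Mouse 1 lay apart from the other mice in 4 of 42 groups of 4 mice examined for an outlying value, each time on the low side, where chance flags about 1 group in 20. Slc12a2 in mature OSNs of mouse 1 was at 2.73 against 3.37 to 3.50 in the others. In class II neurons it was at 2.61 against 3.23 to 3.28, and in dorsal-side class II neurons at 3.20 against 4.50 to 4.56, groups that share neurons with the first. Aqp4 in Sus cells of mouse 1 was at 6.36 against 7.44 to 7.57. Mouse 1 had the most UMIs in total (32382702), but its median per retained cell was 6070, against 6939 in mouse 3. Slc12a2 was also lowest in the Mv2 cells of mouse 1 (14.0), although not apart from the other mice there. Without mouse 1 the log2 change of Slc12a2 was 0.57 between the classes and 0.69 between the sides.

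Slc12a2 was also high in barcodes that the deposited filtering had removed. The 4 clusters of 2003 barcodes with a high share of mitochondrial UMIs held it at 8.49, 7.16, 4.97 and 11.1 in mice 1 to 4, with Ascl3 at 8.23, 6.13, 2.39 and 8.89. The 634 of these barcodes with a UMI of Ascl3, Foxi1 or Cftr, a split chosen after seeing the data, held Slc12a2 at 11.3 ± 1.89, between 9.86 and 14.0, and the other 1369 at 3.67 ± 0.672. Removed immune and blood cells were at 0.497 ± 0.0546 and 0.308 ± 0.143.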

How the results depend on the processing

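Of 82 recomputed values of the levels that the text turns on, 79 moved by less than 1 SD between mice. Aqp3 in Sus was at 9.31 as a mean over cells and at 9.52 without cells holding a receptor UMI, and Aqp3 in HBC2 was at 20.5 in cells with basal markers alone, an alternative chosen after seeing the data. Shares of cells with a UMI moved more often, in 26 of 40 recomputed values. The share of mature OSNs with Slc12a2 was 45.5% at 2000 UMIs per cell and 27.7% at 1000. The tests of Slc12a2 kept their direction and call in 25 of 26 alternatives, the exception being class I against dorsal-side class II (0.10). In it, 715 genes were called. Counts of genes called moved more. Without the mouse as block, 1080 genes were called between the classes and 1209 between the sides, with DESeq2 1040 and 1180, and with thinning 992 and 1374. Among populations, 1573 were called with no filter on low counts and 273 with thinning, where 681 genes were tested. Without the block the log2 changes of Slc12a2 were 0.54 for the classes and 0.63 for the sides. Of 130 alternatives for the tests of other genes, 1 reversed a direction: Slc24a4 between the sides, which had not been called, was at -0.0069 with thinning.

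With each mouse left out in turn, the log2 change of Slc12a2 was 0.49 to 0.57 between classes and 0.58 to 0.69 between sides, and its adjusted p among populations 3.34e-16 to 2.54e-11 (edgeR). The counts of called genes were 1613 to 1846, 2009 to 2378 and 686 to 728. Slc12a2 was at 15.8 to 17.2 in Mv2 and 3.16 to 3.42 in mOSN, Aqp3 at 26.2 to 28.5 in HBC1, 16.6 to 18.7 in HBC2 and 8.63 to 8.95 in Sus, Aqp4 at 7.09 to 8.10 in HBC1 and 7.12 to 7.52 in Sus, and Aqp5 at 15.9 to 17.3 in Sus and 5.70 to 6.27 in HBC1. The p-values rest on 4 mice of 1 group, and sums of the same mouse share a library. edgeR moderates the spread of each gene by that of all genes tested. Its p-values and SEs therefore do not measure the spread of 1 gene between the mice alone. Counts are from the 3′ ends of transcripts, and low levels such as those of the aquaporins in neurons rest on few UMIs.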
